A study of Mus musculus with 140 samples.

Results

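Glomeruli of mouse kidneys taken 4 h after cecal ligation and puncture (CLP) were compared with glomeruli taken 4 h after a sham operation. CLP is a surgical model of abdominal sepsis in which the cecum is tied off and punctured. The libraries were chosen by their labels, as laser-microdissected glomeruli at 4 h from septic or sham-operated mice, and they are 8 of the 140 libraries of the series, 4 for each group. The series as a whole followed gene expression in the renal microvasculature during sepsis-induced kidney injury. All mice were wild-type (WT) males of the strain C57BL6/OlaHsd, and each gave 1 library per compartment. Their age, anesthesia, fluids and antibiotics are not given in the sources used here. The 4 healthy mice, given as 0 h, serve as a second reference and enter only where they are named. Each library is from another mouse, so n = 4 for every group mean below, and p-values measure the spread between mice.

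A glomerulus is a tuft of fenestrated capillaries held together by mesangial cells and wrapped by podocytes, whose foot processes and slit diaphragms form the filter together with the basement membrane. In sepsis, bacterial products and cytokines act on this endothelium, which then displays adhesion molecules such as E-selectin, secretes chemokines that draw neutrophils and shifts the balance between clotting and its inhibitors. NF-kB, AP-1 and STAT3 are the transcription factors best known for switching on such early genes.

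The 8 libraries held 6.55 to 13.1 M reads assigned to genes (counts). Totals did not differ between CLP and sham beyond their spread (exact permutation test, two-sided, p = 0.743, smallest possible p = 0.0286), nor did the number of genes with a count, 13594 to 15114 in CLP and 13582 to 14661 in sham (p = 0.543). Values are given as CPM, counts per M after scaling library sizes by the trimmed mean of M values. Single mice scattered widely: 7.31% of the genes tested had a sham library at 0 beside another at 10 CPM or more, and 6.18% a CLP library. The biological coefficient of variation was 0.957, against 0.204 in whole kidney of the same 8 mice.

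Markers of the labelled compartment were present, but so were markers of the tubule, so their presence alone does not show the compartment. All 29 podocyte markers had counts in both groups, and their summed level was 13793 to 15092 CPM in sham and 11796 to 16239.8 CPM in CLP libraries. The 10 glomerular endothelial markers summed to 4801 to 6594 CPM in sham and 3566 to 4788 CPM in CLP, ranges that did not overlap, and Ehd3 alone held 2454 to 3494 CPM of this in sham and 418 to 2029.8 CPM in CLP. Without Ehd3, a sum chosen after seeing the data, the other 9 overlapped, at 2347 to 3577 CPM in sham and 2462 to 3552 CPM in CLP. The dissected pieces also carried other cells' RNA. The 20 proximal tubule markers summed to 11465 to 15329 CPM in sham and 7251 to 19096 CPM in CLP, and Kap, an androgen-regulated proximal tubule gene, reached 8856 CPM in a CLP library. Erythrocyte and platelet markers summed to 6573 to 18549 CPM in sham and 13285 to 25741 CPM in CLP. The part of tubular or blood RNA in the results was not tested. In dissected tissue, fewer cells of a type and less RNA per cell cannot be told apart.

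**Figure D1:**
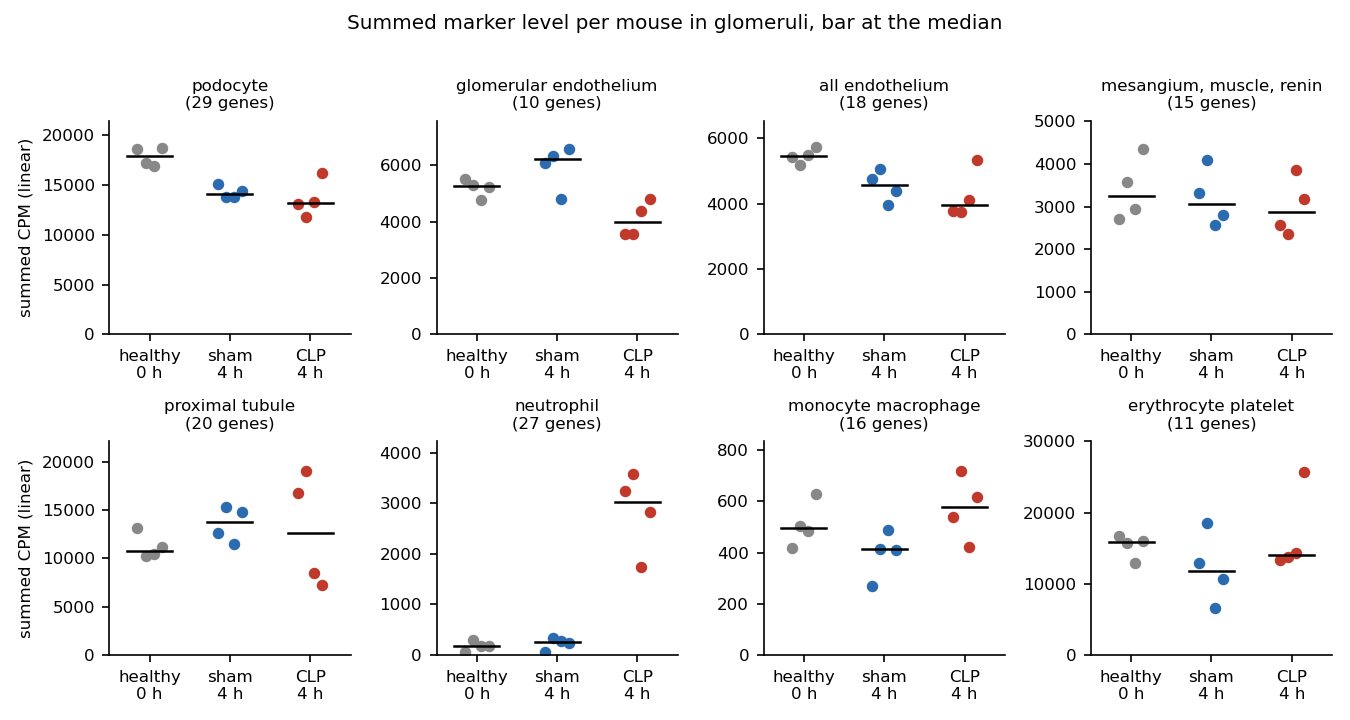
Summed CPM of cell type markers (linear axis from 0) in glomeruli of healthy, sham and CLP mice, 1 point per mouse and a bar at the median. The 4 CLP libraries lie above all sham libraries for neutrophil markers (lowest CLP sum 1746, highest sham sum 335) and below them for glomerular endothelial markers with Ehd3 included (without it the sums overlap), and overlap them for podocyte and proximal tubule markers.

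After CLP the glomeruli had higher transcript levels of inflammatory genes. Of 11786 genes tested, 64 were higher and 5 lower (edgeR quasi-likelihood test, Benjamini-Hochberg adjusted p under 0.05), which is 0.585% of the genes tested, 0.543% higher and 0.0424% lower. The higher genes included metallothioneins, E-selectin, CXC chemokines, neutrophil granule genes, the serum amyloid Saa3 and immediate early transcription factors. In all 69 called genes the 4 CLP mice lay outside the range of the 4 sham mice, which also holds for many uncalled genes: all CLP libraries lay above all sham libraries in 394 genes (3.34%) and below them in 263 (2.23%). Fold changes over all genes were balanced, with 48.1% positive and a median log2 fold change of -0.04.

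**Figure D2:**
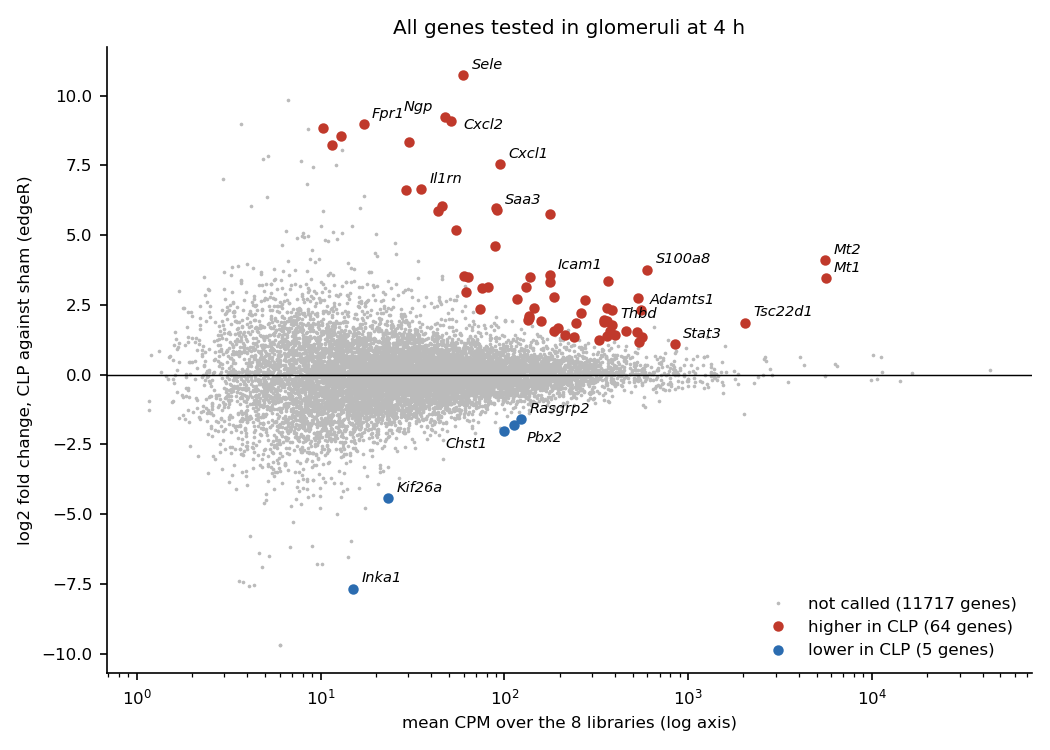
Mean CPM over the 8 libraries (log axis) against the log2 fold change of CLP over sham for the 11786 genes tested, 1 point per gene. The 64 higher genes (red) lie at log2 fold changes of 1.10 and above, and the 5 lower genes (blue) between -1.60 and -7.67.

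The number of calls and their split by direction differed between fits. The same test fitted over all 28 glomerular libraries of the series, with 14586 genes tested, called 16 genes (13 higher and 3 lower), 14 of them among the 69: Mt1, Sele, Mt2, Ngp, Adamts1, Tsc22d1, Akap12, Junb, Rasip1, Ier3, Tnfaip2, Slc12a2, Chst1 and Nupr1. Over the 12 libraries of the healthy and 4 h mice it tested 12864 genes and called 47 (39 higher and 8 lower), of which 41 were among the 69. Calls lost there included Cebpd (adjusted p = 0.0691), Gadd45g (0.135), Adamts4 (0.147) and Litaf (0.367). These genes kept the call when any 1 of the 8 libraries was left out. DESeq2 called 427 (290 higher and 137 lower), all 69 among them. Limma voom with quality weights called 71 (62 higher and 9 lower), of which 49 were shared, and ended calls that included Mt1 (adjusted p = 0.0521), Mt2 (0.112), Cxcl1 (0.331), Cxcl2 (0.182), Cxcl10, Ifit1, Slfn2, Fpr1, Retnlg, Hp, Cebpb, Chil3, Tnip1, Pbx2, Ms4a6d, Kif26a, Ankrd1 and Usp2, at adjusted p of up to 0.46. Leaving out 1 library at a time (sham 2 below is the sham mouse with replicate number 2), 33 of the 69 kept the call every time. The count fell to 37, all higher, without CLP replicate 1, and the 54 genes called without sham replicate 1 were all higher too.

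The metallothioneins gave the smallest p-values together with E-selectin. Metallothioneins are small cysteine-rich proteins that bind zinc and copper, and their genes respond to metals, glucocorticoids and inflammation. Mt1 (ENSMUSG00000031765, chromosome 8, 94179082 to 94180327, build GRCm38) had 754, 1005, 941 and 1057 CPM in the sham mice and 16329, 7691, 10074 and 6910.1 CPM in the CLP mice. It rose by 3.45 ± 0.26 (log2 fold change ± standard error, adjusted p = 6.08e-07, 10.9-fold in means). Mt2 (ENSMUSG00000031762, chromosome 8, 94172664 to 94173568), its neighbour, had 434, 543, 520.1 and 933 CPM in sham and 16293, 6453, 13483 and 5669 CPM in CLP mice and rose by 4.11 ± 0.34 (adjusted p = 9.16e-07). In both genes CLP replicates 1 and 3 were the highest, and every CLP mouse stood far above every sham mouse. Of the 6 tested genes of the metallothionein and zinc list these were the only called members, beside 0.543% of all genes tested that were called higher. Slc30a1, a zinc exporter whose gene also responds to metal, had 85.8, 50.1, 19.3 and 30.8 CPM in sham and 32.1, 23.8, 62.5 and 55.3 CPM in CLP mice, which overlap (log2 fold change -0.10, adjusted p = 0.998).

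The promoters of both metallothioneins are shown because these genes are the classical targets of metal response elements, to which the zinc-sensing factor MTF-1 binds. The windows run from 250 bases before to 50 bases after the start site (RefSeq, GRCm38.p6, both on the plus strand, Mt1 at chr8:94178839-94179138 and Mt2 at chr8:94172368-94172667). Capitals mark the letters TGCACNC or TGCGCNC on either strand, the core of the element.
Mt1: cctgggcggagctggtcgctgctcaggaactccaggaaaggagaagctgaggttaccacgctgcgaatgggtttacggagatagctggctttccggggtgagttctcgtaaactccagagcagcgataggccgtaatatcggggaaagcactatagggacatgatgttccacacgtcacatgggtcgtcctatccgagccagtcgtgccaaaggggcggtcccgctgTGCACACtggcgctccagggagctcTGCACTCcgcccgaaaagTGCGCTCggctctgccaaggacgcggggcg
Mt2: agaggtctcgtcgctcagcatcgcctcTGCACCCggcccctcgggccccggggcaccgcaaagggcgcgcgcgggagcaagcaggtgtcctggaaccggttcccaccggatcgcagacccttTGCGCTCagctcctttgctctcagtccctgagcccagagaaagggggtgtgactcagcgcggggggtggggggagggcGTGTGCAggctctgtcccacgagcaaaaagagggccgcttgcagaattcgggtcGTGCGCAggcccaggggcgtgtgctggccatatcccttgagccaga
The Mt1 window held 3 matches, all on the printed strand, and the Mt2 window 4, of which 2 read on the other strand. The core is short and common: 25.7% of 32851 promoter windows held it, 40.6% of those of the tested genes that matched by symbol, and 18 of the 51 matched higher genes (35.3%). A match is a description of the sequence and no evidence of binding.

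The endothelial adhesion molecules E-selectin and ICAM-1 rose. Sele (ENSMUSG00000026582, chromosome 1, 164048234 to 164057677) encodes E-selectin, which slows passing neutrophils on activated endothelium and is hardly transcribed at rest. Its 4 sham libraries held 0, 0, 0.136 and 0.111 CPM and the 4 CLP libraries 167, 99.2, 79.4 and 132 CPM. Sham mice had 2 counts in all and CLP mice 3952, a ratio of count rates of 2119 (95% exact interval 586 to 17503), where the interval covers counting error only (adjusted p = 6.72e-07). All 4 CLP mice expressed it at a similar level, and no sham mouse came near them. Icam1 (ENSMUSG00000037405, chromosome 9, 21015985 to 21028817), the ligand of leukocyte integrins, had 17.7, 36.3, 11.9 and 44.8 CPM in sham and 627, 287, 271 and 117 CPM in CLP mice and rose by 3.56 ± 0.51 (adjusted p = 6.88e-04). No CLP value fell within the sham range, and all 4 healthy mice, at 70.3 to 95.3 CPM, lay above the sham mice. The adhesion list had 2 called members of 13 tested (16 in the list), beside 0.543% of all genes tested that were called higher. Its median log2 fold change was 0.57, and 1 member, Sele, passed the filter on low counts through CLP libraries alone. Vcam1, the ligand of VLA-4, had 32.6, 11.9, 46.5 and 63.7 CPM in sham and 132, 60.2, 71.8 and 86 CPM in CLP mice, which overlapped (log2 fold change 1.18, adjusted p = 0.73). Selp, P-selectin, was too low to be tested, with 11.4 CPM in CLP replicate 1 and at most 2.28 CPM elsewhere.

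**Figure D3:**
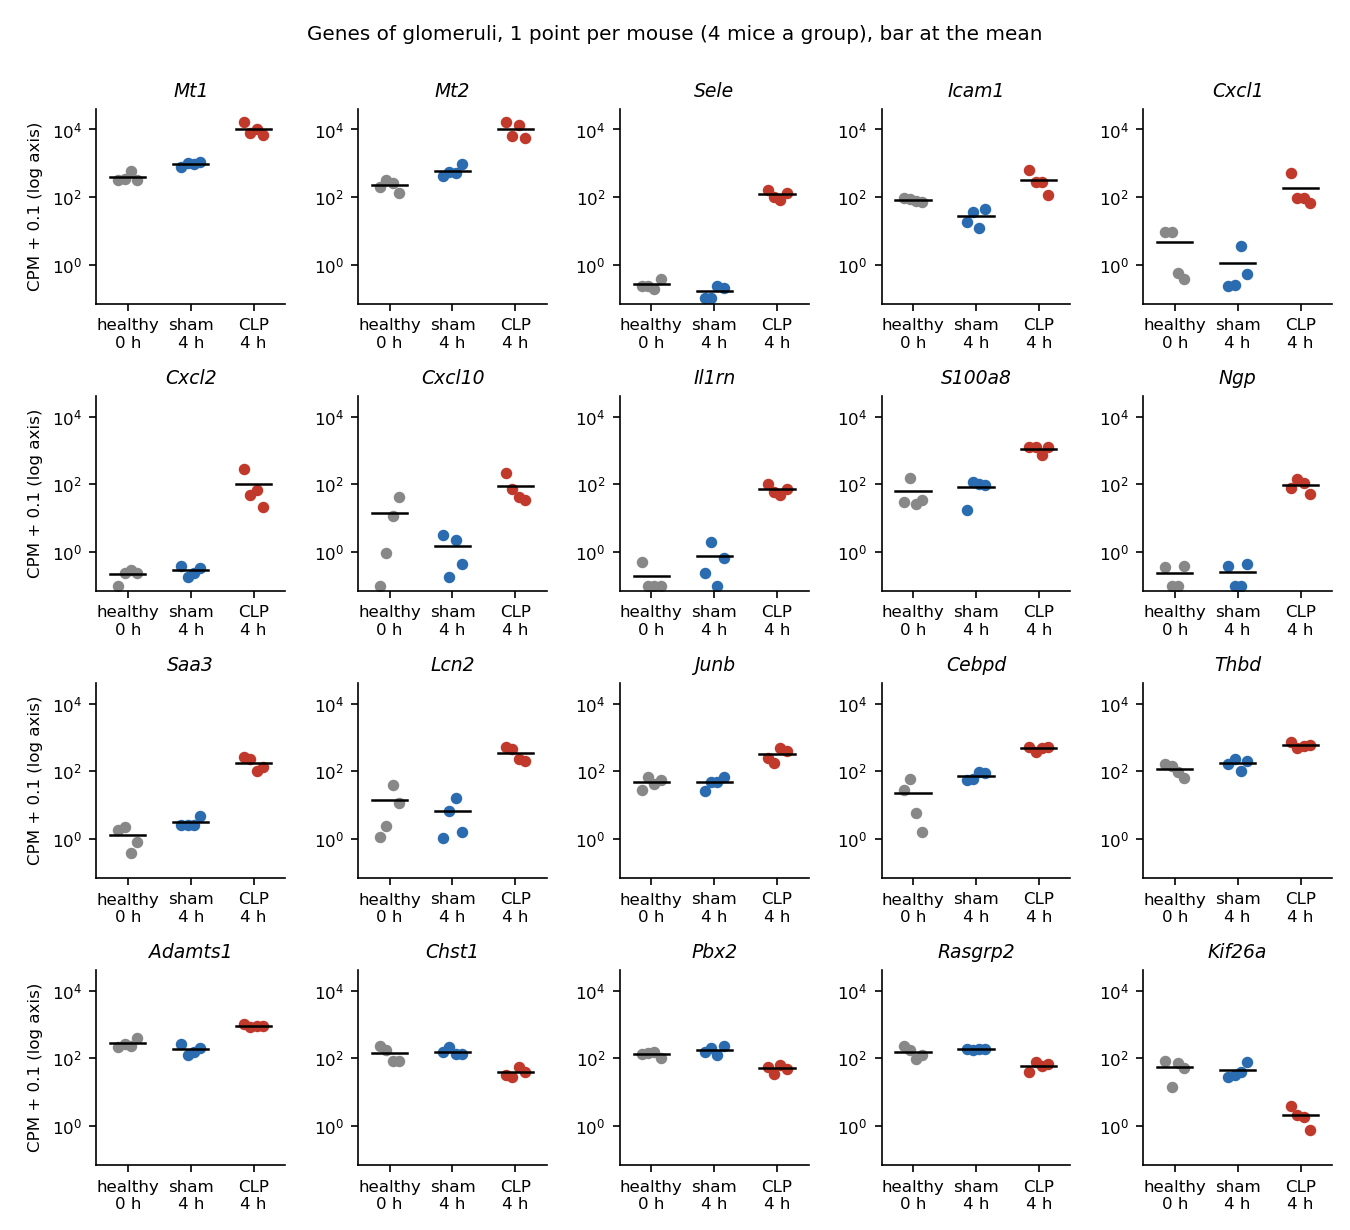
CPM + 0.1 (log axis) of 20 genes in glomeruli of healthy mice (grey), sham mice (blue) and CLP mice (red), 1 point per mouse and a bar at the mean. In the first 16 panels the CLP mice lie above all sham mice, as for Sele at 79.4 to 167 CPM against 0 to 0.136, and in Chst1, Pbx2, Rasgrp2 and Kif26a below them.

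CXC chemokines were the chemokines that rose. Cxcl1 and Cxcl2 draw neutrophils through the receptor CXCR2, and Cxcl10, an interferon-induced chemokine, draws T cells through CXCR3. Cxcl1 (ENSMUSG00000029380, chromosome 5, 90891241 to 90893115) had 0.142, 0.151, 3.41 and 0.444 CPM in sham and 504, 94.6, 91.7 and 64.7 CPM in CLP mice and rose by 7.56 ± 0.99 (adjusted p = 2.46e-04). Cxcl2 (ENSMUSG00000058427, chromosome 5, 90903871 to 90905938) had 0.283, 0.0756, 0.136 and 0.222 CPM in sham and 273, 46.7, 67.7 and 20.3 CPM in CLP mice and rose by 9.11 ± 1.00 (adjusted p = 3.85e-05). CLP replicate 1 was the highest for both, and CLP replicate 4 the lowest, still above every sham mouse. Cxcl10 (ENSMUSG00000034855, chromosome 5, 92346638 to 92348889) had 2.97, 0.0756, 2.18 and 0.333 CPM in sham and 215, 71.6, 41.7 and 34.6 CPM in CLP mice, again highest in replicate 1, and rose by 6.05 ± 1.00 (adjusted p = 0.00311), a call ended by leaving out CLP 1 (highest adjusted p 0.128). These were 3 of 13 tested members of a list of 26 chemokine genes, whose median log2 fold change was 0.78. Of all genes tested 0.543% were called higher. Cxcl2 passed the filter on low counts through CLP libraries alone, so its direction was fixed. Ccl2, the main monocyte chemokine, had 0.142, 0, 1.36 and 3.89 CPM in sham and 37.7, 2.54, 9.75 and 0 CPM in CLP mice and overlapped (log2 fold change 3.20, adjusted p = 0.952), and Cx3cl1, fractalkine, stood at 0.76 (adjusted p = 0.886).

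The promoters of the 3 called chemokine genes are shown for their kappaB letters, the binding motif of NF-kB. Capitals mark GGG, any 3 bases and TTCC, on either strand, in the same RefSeq windows (GRCm38.p6), at chr5:90890995-90891294 and chr5:90903649-90903948 on the plus strand and chr5:92348840-92349139 on the minus strand, each printed in the direction of transcription.
Cxcl1: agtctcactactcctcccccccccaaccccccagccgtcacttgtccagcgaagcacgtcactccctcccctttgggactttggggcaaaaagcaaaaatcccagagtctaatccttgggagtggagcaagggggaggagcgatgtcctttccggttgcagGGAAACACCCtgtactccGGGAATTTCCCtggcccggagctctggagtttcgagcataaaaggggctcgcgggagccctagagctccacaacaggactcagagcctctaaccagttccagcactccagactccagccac
Cxcl2: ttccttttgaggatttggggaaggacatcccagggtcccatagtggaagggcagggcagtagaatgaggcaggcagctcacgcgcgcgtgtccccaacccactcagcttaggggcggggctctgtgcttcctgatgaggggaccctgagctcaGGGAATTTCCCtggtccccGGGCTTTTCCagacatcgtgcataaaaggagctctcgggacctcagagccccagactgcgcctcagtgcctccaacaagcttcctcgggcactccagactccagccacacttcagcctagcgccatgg
Cxcl10: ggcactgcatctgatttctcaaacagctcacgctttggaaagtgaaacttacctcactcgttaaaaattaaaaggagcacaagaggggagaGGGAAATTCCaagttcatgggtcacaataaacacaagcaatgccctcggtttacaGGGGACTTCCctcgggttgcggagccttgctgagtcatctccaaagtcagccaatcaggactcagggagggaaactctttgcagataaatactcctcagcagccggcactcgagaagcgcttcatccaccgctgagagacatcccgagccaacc
Cxcl1 and Cxcl2 each held 3 matches, of which 2 overlap as readings of 1 stretch on both strands, GGGAATTTCCC in both genes, and Cxcl10 held 2. The letters occurred in 5.56% of all promoter windows, in 7.45% of those of tested genes and in 8 of the 51 matched higher genes (15.7%): Ankrd1, Cxcl1, Cxcl10, Cxcl2, Il1rn, Il4ra, Serpina3g and Tnip1. The AP-1 letters TGANTCA occurred in 7.81%, in 6.002% and in 5 of the 51 (9.80%), Cxcl10, Il1rn, Mt2, Sele and Sema4c. The share among the higher genes describes these windows and was not tested.

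Neutrophil genes gave more calls than any other list. The 27 listed neutrophil markers summed to 58.6 to 335 CPM in sham, 52.3 to 296 CPM in healthy and 1746 to 3582 CPM in CLP mice. S100a8 (ENSMUSG00000056054, chromosome 3, 90668978 to 90670035), a subunit of calprotectin and one of the most abundant neutrophil proteins, had 16.6, 119, 102 and 93.7 CPM in sham and 1255, 1268, 718 and 1235 CPM in CLP mice and rose by 3.76 ± 0.44 (adjusted p = 6.06e-05). Its partner S100a9 had 4.81, 86.7, 94.1 and 77.2 CPM in sham and 656, 920.0, 340.1 and 746 CPM in CLP mice and rose by 3.35 ± 0.57 (adjusted p = 0.00409), a call ended by leaving out sham 2 (highest adjusted p 0.0864). Both were present in every sham mouse, and CLP replicate 3 was the lowest CLP mouse for both.

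Ngp, Camp and Fpr1, expressed in neutrophils, were near 0 in sham mice. Ngp (ENSMUSG00000032484, chromosome 9, 110419747 to 110423012), neutrophilic granule protein, had 0.283, 0, 0 and 0.333 CPM in sham and 74.5, 147, 108 and 52.7 CPM in CLP mice (adjusted p = 2.16e-05). Camp, cathelicidin, had 1 count over the sham mice and 12.7 to 36.4 CPM in CLP mice, a ratio of 746 (95% exact interval 134 to 29520.5, adjusted p = 0.0434), a call ended by leaving out any 1 of the 8 libraries (highest adjusted p 0.333). Fpr1, the formyl peptide receptor that senses bacterial peptides, had 2 sham counts and 50.2, 59.2, 20.6 and 6.87 CPM in CLP mice, a ratio of 608 (95% exact interval 168 to 5027, adjusted p = 0.00501), a call ended by leaving out CLP 1 or 2 (highest adjusted p 0.0796). Lcn2 (ENSMUSG00000026822, chromosome 2, 32384633 to 32388252), a siderophore-binding protein made by neutrophils and by injured tubules, had 0.991, 6.65, 16.3 and 1.44 CPM in sham and 506, 447, 236 and 198 CPM in CLP mice and rose by 5.77 ± 0.71 (adjusted p = 1.14e-04). Retnlg and Hp, the last also an acute-phase plasma protein, were called too, at 3.50 ± 0.64 (ended by leaving out CLP 2, highest adjusted p 0.0558) and 5.19 ± 0.98 (ended by leaving out sham 3 or CLP 1, highest adjusted p 0.121).

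In all, 8 of 19 tested neutrophil markers of 27 were called higher, beside 0.543% of all genes, with a median log2 fold change of 3.35. All 19 had a positive fold change, but 4 of them passed the filter through CLP libraries alone, so their direction was fixed. The primary granule genes Elane and Mpo, which are transcribed in bone marrow precursors, and Trem1 had no count in any of the 8 libraries, and Ly6g had none in sham mice. Monocyte and macrophage markers had summed levels of 268 to 489 CPM in sham and 423 to 719.6 CPM in CLP mice. Of 12 tested, only Chil3 was called, beside 0.543% of all genes tested that were called higher. Chil3 had 0.142, 0, 2.04 and 0.222 CPM in sham and 18.5, 82.7, 13.6 and 116 CPM in CLP mice (adjusted p = 0.0161), a call ended by leaving out sham 1 or CLP 2 or 4 (highest adjusted p 0.157). Lyz2, lysozyme, stood at 0.87 (adjusted p = 0.923) and C1qa, a complement gene of resident macrophages, at -0.01 (adjusted p = 0.999). No lymphocyte marker was high enough to be tested. The part of these leukocyte RNAs in the changes of other genes was not tested.

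Among cytokines the interleukin-1 receptor antagonist stood out. Il1rn (ENSMUSG00000026981, chromosome 2, 24336853 to 24351494), which blocks the interleukin-1 receptor, had 0.142, 1.89, 0 and 0.556 CPM in sham and 100.02, 59.2, 48.6 and 71.6 CPM in CLP mice and rose by 6.65 ± 1.03 (adjusted p = 0.00178). It was the 1 called gene of 12 tested in a cytokine list of 24, beside 0.543% of all genes tested that were called higher. Il1b, the agonist of the same receptor, had 0, 21.6, 0.272 and 3.11 CPM in sham and 40.2, 97.9, 0.275 and 66 CPM in CLP mice, and CLP replicate 3 lay among the low sham mice (log2 fold change 3.03, adjusted p = 0.757). Tnf was not tested, with 3 counts in the sham mice and 44, 3.75, 23.1 and 0 CPM in the CLP mice. Il6 had counts in 1 library alone, CLP replicate 1, at 2.56 CPM. A library at 0 is bounded at 3 counts, 0.291 to 0.403 CPM in these CLP libraries, counting error only.

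Of 18 tested cytokine receptors only Il4ra was called, beside 0.543% of all genes tested that were called higher. Il4ra, the shared alpha chain of the interleukin-4 and interleukin-13 receptors, had 194, 269, 288 and 333 CPM in sham and 964, 639.9, 815 and 739 CPM in CLP mice and rose by 1.55 ± 0.25 (adjusted p = 0.00261). In 7 of the 18 the CLP mice lay above all sham mice, against 3.34% of all genes tested. Besides Il4ra these were, without a call, Il17ra, Il6st, Osmr, Tnfrsf12a, Tnfrsf1a and Tnfrsf1b. Tnfrsf1b, a TNF receptor, had 0.566, 0.0756, 2.45 and 0.111 CPM in sham and 25.7, 11.4, 20.9 and 37 CPM in CLP mice (adjusted p = 0.29), and Il1r1, the signalling interleukin-1 receptor, stood at 1.56 (adjusted p = 0.969). In the list of Toll-like receptor signalling no gene of 14 was called, near the 0.585% of all genes tested that were called. Cd14, the lipopolysaccharide co-receptor, had 16, 1.66, 1.77 and 1.78 CPM in sham and 73.4, 49.7, 30.6 and 3.57 CPM in CLP mice (log2 fold change 2.89, adjusted p = 0.532), Tlr2 stood at 2.29 (adjusted p = 0.975) and Tlr4 at 0.06 (adjusted p = 0.999).

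Among NF-kB response genes 5 rose and none fell. Cebpd (ENSMUSG00000071637, chromosome 16, 15887286 to 15891031), a transcription factor of the acute-phase response, had 55.7, 57.5, 94.1 and 89.1 CPM in sham and 508, 369, 482 and 531 CPM in CLP mice and rose by 2.67 ± 0.30 (adjusted p = 4.28e-05). Ier3, a survival gene induced early by NF-kB, had 73.2, 114, 211 and 70.9 CPM in sham and 733, 649, 395 and 660.1 CPM in CLP mice and rose by 2.38 ± 0.35 (adjusted p = 0.00103). The groups were well apart in both, and the CLP mice were close to one another for Cebpd. Tnfaip2 rose by 1.88 ± 0.34 (ended by leaving out CLP 1, highest adjusted p 0.0672), Cebpb, the partner of Cebpd, by 2.96 ± 0.57 (ended by leaving out CLP 1 or 4, highest adjusted p 0.0711), and Tnip1, which helps A20 to dampen NF-kB, by 3.12 ± 0.64 (ended by leaving out sham 2 or CLP 1 or 2, highest adjusted p 0.2). These were 5 of 23 tested members of 26 (0.543% of all genes tested were called higher), with a median of 1.91. All 23 fold changes were positive (48.1% of all genes tested), 1 of them of a gene that passed the filter through CLP libraries alone. In 11 of the 23 the CLP mice lay above all sham mice, against 3.34% of all genes tested.

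Inhibitors of NF-kB had positive fold changes without a call. Nfkbia, the inhibitor IkB-alpha, had 729, 447, 399 and 1292 CPM in sham and 2342, 2015, 1359 and 1523 CPM in CLP mice, which did not overlap (log2 fold change 1.34, adjusted p = 0.0688). It was called by limma voom (adjusted p = 8.25e-04), DESeq2 (0.0115) and without sham replicate 4, the highest sham mouse (0.00393). Nfkbiz stood at 2.26 (adjusted p = 0.231), with sham replicate 4 at 52.2 CPM above CLP replicate 4 at 45.8 CPM. Tnfaip3, the deubiquitinase A20, stood at 2.58 (adjusted p = 0.975) and Birc3, an inhibitor of apoptosis, at 1.72 (adjusted p = 0.537).

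Among immediate early genes, which are transcribed within minutes of a stimulus, 3 rose. Fosl2, an AP-1 subunit, had 112, 168, 63.1 and 167 CPM in sham and 642, 535, 550.4 and 831 CPM in CLP mice and rose by 2.33 ± 0.32 (adjusted p = 4.06e-04). Junb, another AP-1 subunit, had 25.9, 48.5, 47.8 and 66.9 CPM in sham and 239.7, 181, 489 and 387 CPM in CLP mice and rose by 2.78 ± 0.39 (adjusted p = 5.73e-04). Gadd45g, a stress sensor, had 43.9, 69.3, 40.6 and 31 CPM in sham and 259.8, 268, 210.3 and 239 CPM in CLP mice and rose by 2.41 ± 0.35 (adjusted p = 9.44e-04). The 3 are the called members of 22 tested of 27 (0.543% of all genes tested were called higher), whose median was 1.54. Of the 22, 21 were positive, beside 48.1% of all genes tested. CLP mice lay above all sham mice in 12 of the 22, and in 3.34% of all genes tested. Fos, the founding AP-1 gene, had 0, 0, 3.95 and 6 CPM in sham and 29.7, 12.2, 28.7 and 30.1 CPM in CLP mice (adjusted p = 0.789). Egr1 stood at 2.00 (adjusted p = 0.593) and was called without sham replicate 4, which held 55.4 CPM (adjusted p = 0.0242), and Atf3 stood at 0.95 (adjusted p = 0.997).

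Interferon and STAT3 targets contributed 2 called genes each. Ifit1, an antiviral RNA-binding protein, had 3.97, 11.7, 8.45 and 14.1 CPM in sham and 121, 56, 134 and 134 CPM in CLP mice and rose by 3.53 ± 0.56 (adjusted p = 0.0022). Iigp1, an interferon-inducible GTPase, rose by 2.10 ± 0.38 (adjusted p = 0.00733), a call ended by leaving out CLP 1 (highest adjusted p 0.086). They were 2 of 38 tested interferon genes of 43, beside 0.543% of all genes tested that were called higher. Of the 38, 34 were positive, beside 48.1% of all genes tested, and their median was 1.06. Isg15, a ubiquitin-like modifier, had 15.9, 7.56, 6.95 and 9.78 CPM in sham and 83.9, 42.6, 22.2 and 31 CPM in CLP mice, with no overlap (log2 fold change 2.17, adjusted p = 0.451). Irf1 stood at 1.14 (adjusted p = 0.414) and Irf7 at 0.94 (adjusted p = 0.997).

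Socs3, the feedback inhibitor of STAT3 signalling, had 33.1, 34.5, 17.6 and 40.2 CPM in sham and 243, 121, 311 and 138 CPM in CLP mice and rose by 2.69 ± 0.42 (adjusted p = 0.00195). Stat3 itself rose by 1.10 ± 0.24 (adjusted p = 0.0421), from 542 ± 103 to 1156 ± 271 CPM (mean ± SD), a call ended by leaving out sham 1, 2, 3 or 4 or CLP 1, 3 or 4 (highest adjusted p 0.195). All 9 tested STAT3 genes of 10 had a positive fold change, beside 48.1% of all genes tested. Their median was 1.10, and Timp1 stood at 3.19 (adjusted p = 0.748). Of the acute-phase list of 9, only Saa3 and Cp passed the filter. Saa3 (ENSMUSG00000040026, chromosome 7, 46711998 to 46715700), a serum amyloid made outside the liver, had 2.55, 2.5, 2.45 and 4.56 CPM in sham and 256, 224, 100.1 and 138 CPM in CLP mice and rose by 5.90 ± 0.52 (adjusted p = 1.75e-06).

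Among genes of clotting control, thrombomodulin rose. Thbd (ENSMUSG00000074743, chromosome 2, 148404466 to 148408188), thrombomodulin, the endothelial cofactor that turns thrombin into an activator of protein C, had 158, 228, 99.3 and 200.1 CPM in sham and 742, 497, 561 and 580.0 CPM in CLP mice and rose by 1.80 ± 0.29 (adjusted p = 0.00232, 3.47-fold in means). The groups stood apart, and the CLP mice lay within a narrow range. Plat, tissue plasminogen activator, which starts the dissolving of clots, had 1023, 406, 476 and 611 CPM in sham and 936, 364, 966 and 416 CPM in CLP mice and overlapped fully (log2 fold change 0.09, adjusted p = 0.997).

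Of the anticoagulant list 1 of 10 tested genes was called and of the procoagulant list 0 of 13, beside 0.585% of all genes tested. The lists were not tested against each other, and 1 call against 0 shows no difference between them. Procr, the endothelial protein C receptor, stood at -0.74 (adjusted p = 0.997) with at most 13.5 CPM in a library, and Tfpi, tissue factor pathway inhibitor, at -1.23 (adjusted p = 0.997). F3, tissue factor, was not tested, since its 8 libraries held at most 0.954 CPM. Vwf had 9.63, 1.36, 11 and 0.778 CPM in sham and 2.87, 0.937, 1.78 and 0.924 CPM in CLP mice (adjusted p = 0.997). Tbxa2r, the thromboxane receptor, had 52.7, 39.5, 17.7 and 2.33 CPM in sham and 0.205, 0.268, 0.686 and 0 CPM in CLP mice. It missed the threshold (adjusted p = 0.0809) and passed in the fit of 28 libraries (0.0318) and without sham replicate 4, the lowest sham mouse (0.0269). Fga, fibrinogen alpha, stood at 2.21 (adjusted p = 0.975) and Thbs1, thrombospondin-1, at 1.92 (adjusted p = 0.653).

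Of the secreted ADAMTS proteases, which cut proteoglycans such as versican and aggrecan, 3 rose. Adamts1 (ENSMUSG00000022893, chromosome 16, 85793827 to 85803113) had 262, 126, 157 and 204 CPM in sham and 1021, 855, 893 and 929 CPM in CLP mice and rose by 2.30 ± 0.27 (adjusted p = 5.93e-05). Adamts4 had 0.708, 7.94, 1.09 and 18.1 CPM in sham and 259, 118, 187 and 116 CPM in CLP mice and rose by 4.60 ± 0.78 (adjusted p = 0.00387). Adamts9 had 33.1, 22.7, 16.3 and 25 CPM in sham and 159, 123, 113 and 94.8 CPM in CLP mice and rose by 2.34 ± 0.45 (adjusted p = 0.0124), a call ended by leaving out CLP 1 (highest adjusted p 0.115). CLP mice lay above all sham mice for each of the 3. They were the called members of 13 tested in a list of 18 proteases and inhibitors (0.543% of all genes tested were called higher). Adamts5 lay the other way, from 258 ± 55.1 to 101 ± 23.7 CPM with no overlap, and missed the threshold (log2 fold change -1.36, adjusted p = 0.0666). It was singled out after its values were seen. Timp3, an inhibitor of these proteases that binds to matrix, stood at 0.33 (adjusted p = 0.931) and had 2979 to 4488 CPM in sham and 4182 to 5984 CPM in CLP mice.

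Of 26 tested glycocalyx genes 1 was called, and it fell. Among all genes tested 0.585% were called, 0.0424% lower, and 1 call says little about the list. Chst1 (ENSMUSG00000027221, chromosome 2, 92599707 to 92615250), which adds sulfate to keratan sulfate and related sugars, had 152, 209.8, 135 and 138 CPM in sham and 32.6, 28, 57 and 39.2 CPM in CLP mice and fell by 2.02 ± 0.40 on the log2 scale (adjusted p = 0.0159, 4.05-fold in means), a call ended by leaving out sham 1 or 2 or CLP 1 or 2 (highest adjusted p 0.0927). The highest CLP mouse lay well below the lowest sham mouse. Sdc4, a heparan sulfate proteoglycan, stood at 0.64 (adjusted p = 0.581).

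The other 4 lower genes belonged to none of the lists. Inka1, an inhibitor of the kinase PAK4, had 51.1, 17.2, 24 and 27.3 CPM in sham and 0, 0.268, 0.275 and 0 CPM in CLP mice (adjusted p = 0.0241), a call ended by leaving out sham 1 or 3 or CLP 1 or 4 (highest adjusted p 0.171). It passed the filter on low counts through sham libraries alone, so its direction was fixed. Kif26a, a kinesin-like protein without motor activity, had 28.7, 31.1, 40.6 and 77.6 CPM in sham and 3.79, 2.01, 1.78 and 0.66 CPM in CLP mice and fell by 4.41 ± 0.97 (adjusted p = 0.0419), a call ended by leaving out any 1 of the 8 libraries (highest adjusted p 0.235). Pbx2, a homeodomain transcription factor, had 151, 196, 123 and 234 CPM in sham and 55.2, 34.8, 62.7 and 48.2 CPM in CLP mice and fell by 1.81 ± 0.38 (adjusted p = 0.0256), a call ended by leaving out sham 1, 2 or 4 or CLP 1, 2 or 4 (highest adjusted p 0.0993). Rasgrp2, an activator of the small GTPase Rap1, had 193, 176, 186 and 192 CPM in sham and 40.0, 77.2, 58.2 and 69.2 CPM in CLP mice and fell by 1.60 ± 0.35 (adjusted p = 0.039), a call ended by leaving out sham 1, 2, 3 or 4 or CLP 1, 3 or 4 (highest adjusted p 0.213). In all 5 lower genes the CLP mice also lay below the 4 healthy mice.

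None of 28 tested podocyte genes of 29 was called, near the 0.585% of all genes tested that were called. The median log2 fold change of the 28 was -0.06. Nphs1, nephrin, had 342, 185, 478 and 151 CPM in sham and 458, 203, 390.1 and 429 CPM in CLP mice (log2 fold change 0.35, adjusted p = 0.997), which overlapped. Synpo, which organizes actin in foot processes, was lower in every CLP mouse than in any sham mouse, at -0.26 (adjusted p = 0.975). Podxl stood at -0.25 (adjusted p = 0.975), Wt1 at -0.41 (adjusted p = 0.975) and Vegfa at 0.09 (adjusted p = 0.997). Outside the list, Pdpn, podoplanin of podocytes, was called higher (log2 fold change 1.24 ± 0.27, adjusted p = 0.039). Leaving out sham 1 or 4 or CLP 1, 2 or 4 ended that call. None of 13 basement membrane genes was called, with Col4a3 at 0.64 (adjusted p = 0.977) and Lamb2 at -0.26 (adjusted p = 0.997).

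Endothelial identity genes gave no call, near the 0.585% of all genes tested that were called. Ehd3 (ENSMUSG00000024065, chromosome 17, 73804134 to 73832094), an endocytic protein that marks the glomerular capillary, had 2501, 3494, 2454 and 3246 CPM in sham and 418, 1104, 836 and 2029.8 CPM in CLP mice, with no overlap (log2 fold change -1.41 ± 0.33, adjusted p = 0.0683). It was called in the fit of 12 libraries (adjusted p = 0.0243), by limma voom (0.0271), by DESeq2 (0.0133) and without CLP replicate 4, the highest CLP mouse (0.00341). It was 1 of 9 tested glomerular endothelial genes, whose median was -0.21. Of 17 pan-endothelial genes none was called: Emcn, endomucin, stood at -0.81 (adjusted p = 0.309), Kdr, the main VEGF receptor, at -0.50 (adjusted p = 0.88), Cdh5, VE-cadherin, at 0.47 (adjusted p = 0.975) and Pecam1 at 0.03 (adjusted p = 0.999). Kdr was lower in 3 of the 4 CLP mice, while CLP replicate 4 lay inside the sham range.

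Barrier and vascular growth genes gave 1 call. The background for each list of this paragraph is 0.585% of all genes tested called, 0.543% higher. Rhob, a small GTPase that acts on endothelial contraction, had 70.7, 96.1, 113 and 91.3 CPM in sham and 399.7, 210.0, 274 and 306 CPM in CLP mice and rose by 1.68 ± 0.31 (adjusted p = 0.00998), a call ended by leaving out CLP 1 (highest adjusted p 0.0996). It was the 1 called gene of 15 junction and barrier genes, among which S1pr1, the sphingosine-1-phosphate receptor, stood at 1.41 (adjusted p = 0.195) and Cldn5 at 0.36 (adjusted p = 0.997). In the angiopoietin and VEGF list no gene of 14 was called. Angpt2, the Tie2 antagonist that endothelium releases in sepsis, had 14.2, 9.98, 37.5 and 5.78 CPM in sham and 42.6, 19.7, 62.9 and 49.1 CPM in CLP mice (1.37, adjusted p = 0.911). Flt1 stood at 0.16 (adjusted p = 0.997), Esm1 at 0.61 (adjusted p = 0.997) and Apln at 0.15 (adjusted p = 0.999). Among 19 vasoactive genes none was called, with Edn1, endothelin-1, at 0.84 (adjusted p = 0.975), its receptor gene Ednrb at 1.34 (adjusted p = 0.252) and Nos3, the endothelial nitric oxide synthase, at 0.78 (adjusted p = 0.994). Klf7 was the 1 called gene of 11 Krüppel-like factors, at 1.15 ± 0.25, a call ended by leaving out sham 1, 2 or 3 or CLP 1, 2, 3 or 4 (highest adjusted p 0.121), while the flow-responsive factors Klf2 (0.02, adjusted p = 0.999) and Klf4 (-0.43, adjusted p = 0.997) were not called.

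Mesangial, muscle and renin genes gave no call among 15 tested, near the 0.585% of all genes tested that were called. Pdgfrb, a receptor of mesangial cells and pericytes, stood at -0.60 (adjusted p = 0.941), Itga8 at -0.69 (adjusted p = 0.931), Acta2 at -0.26 (adjusted p = 0.997) and Ren1, renin, at -0.12 (adjusted p = 0.997). Tubular genes gave none either: Slc34a1 stood at -0.14 (adjusted p = 0.997), Kap at -0.04 (adjusted p = 0.999) and Umod, of the thick ascending limb, at 0.23 (adjusted p = 0.997). Havcr1, the tubular injury marker KIM-1, had 1 count over the 8 libraries. Haemoglobin Hbb-bs stood at 0.32 (adjusted p = 0.99) and Cd74, of antigen presentation, at 0.61 (adjusted p = 0.99).

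Of the 11 tested glucocorticoid targets only Cdkn1a was called, beside 0.543% of all genes tested that were called higher. The 11 had a median log2 fold change of 0.26, with 9 positive and 2 negative. In 4 of the 11, Cdkn1a, Ddit4, Errfi1 and Pdk4, all CLP mice lay above all sham mice, against 3.34% of all genes tested. DESeq2 called 3 of the list higher. Cdkn1a, the cell cycle inhibitor p21, had 66.8, 46.8, 46 and 47.4 CPM in healthy, 385, 249, 281 and 364 CPM in sham and 819, 769, 721 and 914 CPM in CLP mice and rose from sham to CLP by 1.34 ± 0.24 (adjusted p = 0.00707). Fkbp5 and Tsc22d3, 2 common targets, overlapped between sham and CLP mice and were lower in every healthy mouse. Fkbp5 had 7.64 to 34.7 CPM in healthy, 190.0 to 620.3 CPM in sham and 318 to 523 CPM in CLP mice (0.10, adjusted p = 0.997). Tsc22d3, the glucocorticoid-induced leucine zipper, had 59.4 to 64.4 CPM in healthy, 186 to 591 CPM in sham and 405 to 635 CPM in CLP mice (0.18, adjusted p = 0.997). Per1 stood at 0.36 (adjusted p = 0.997) and Sgk1 at 0.09 (adjusted p = 0.997). The 15 tested clock genes had a median of -0.46 and no call, with Nr1d1 at -0.87 (adjusted p = 0.97) and Dbp at -0.56 (adjusted p = 0.997). Complement (14 tested, C3 at 0.54, adjusted p = 0.918), heat shock and unfolded protein genes (15, Hspa1a at -0.12, adjusted p = 0.999), oxidative and iron genes (11, Hmox1 at 1.78, adjusted p = 0.914), respiratory chain genes (20, median -0.10) and cell cycle genes (10, Mki67 at -0.15, adjusted p = 0.999) held no called member.

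**Figure D4:**
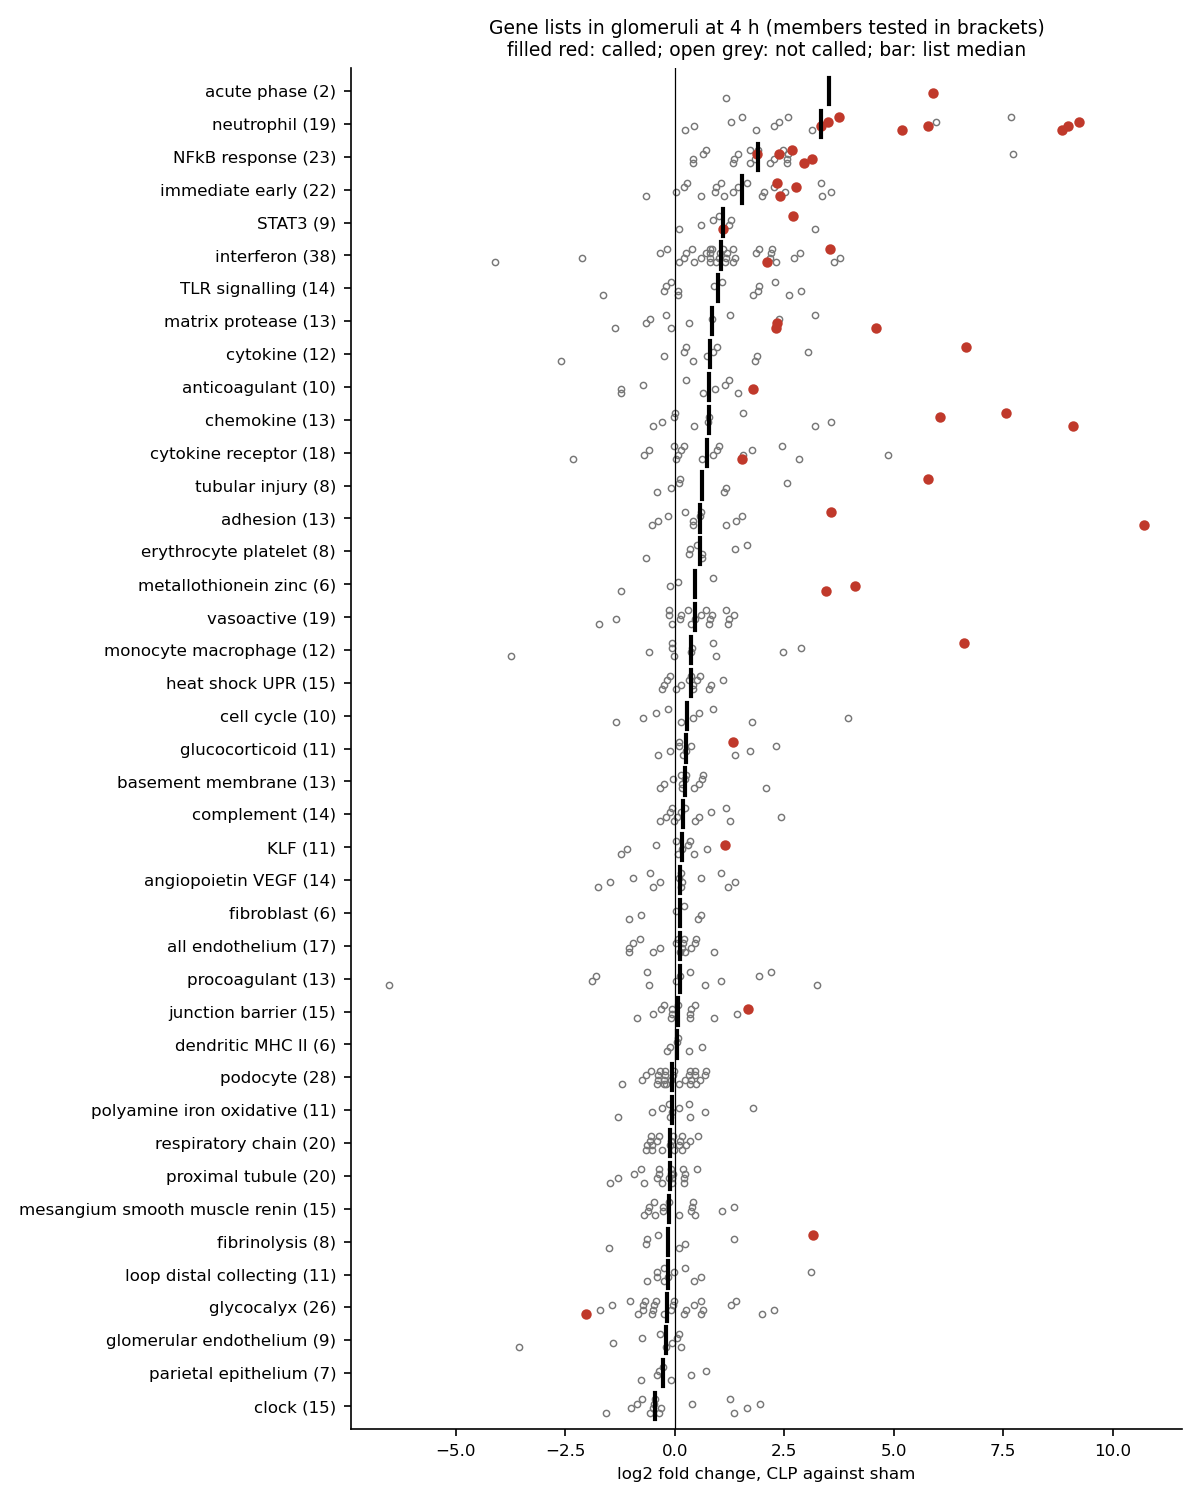
Log2 fold change of CLP over sham for the tested members of each gene list, 1 point per gene, red where called, with a bar at the list median. The neutrophil, NF-kB and immediate early lists lie furthest to the right among lists with more than 2 tested members (medians 3.35, 1.91 and 1.54), and podocyte and respiratory chain genes lie around 0.

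The remaining 25 higher genes lay in none of the lists. Serpina3f and Ms4a6d were named by the size of their change and the others given here after their values were seen. Arid5a, an RNA-binding protein that stabilizes inflammatory transcripts, had 2.27, 4.46, 1.5 and 3 CPM in sham and 186, 213, 207 and 106 CPM in CLP mice and rose by 5.97 ± 0.53 (adjusted p = 1.75e-06). Pfkfb3, which makes the main activator of glycolysis, had 27, 17.5, 18.3 and 27 CPM in sham and 332, 249, 312 and 122 CPM in CLP mice and rose by 3.50 ± 0.40 (adjusted p = 5.93e-05). For both, every CLP mouse lay above every sham mouse. Serpina3f, a protease inhibitor, had 0.142, 0.0756, 0.272 and 0.222 CPM in sham and 109, 51.1, 49.6 and 32.2 CPM in CLP mice (8.34 ± 1.01, adjusted p = 8.88e-05). It passed the filter on low counts through CLP libraries alone, so its direction was fixed. Its relative Serpina3g rose by 3.33 ± 0.67, a call ended by leaving out sham 1 or CLP 1, 2 or 4 (highest adjusted p 0.0959), and reads of these near-identical copies may be split between them.

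Tsc22d1, a leucine zipper protein, was the most abundant higher gene after the metallothioneins, with 886 ± 178 CPM in sham and 3209 ± 471 CPM in CLP mice (mean ± SD), a rise of 1.86 ± 0.22 (adjusted p = 5.97e-05). Rasip1, an endothelial protein needed for vessel lumens, rose from 143 ± 30.2 to 558 ± 132 CPM (1.97 ± 0.28) and Akap12, a scaffold of protein kinase A, from 139 ± 35.4 to 926 ± 583 CPM (2.74 ± 0.36). Sbno2 rose by 1.93 ± 0.30, Litaf, named for its induction by lipopolysaccharide, by 2.22 ± 0.35, Sema4c by 1.84 ± 0.30 and the predicted gene Gm13889 by 1.93 ± 0.33. These 7 kept the call in every leave-one-out fit. Of them Sbno2 (adjusted p = 0.189), Litaf (0.339), Sema4c (0.553) and Gm13889 (0.305) were not called in the fit of 28 libraries, nor Litaf in that of 12 (0.367). Ms4a6d, a myeloid membrane protein, had 2 sham counts and 21.4, 23.7, 31.7 and 15.7 CPM in CLP mice, a ratio of 395 (95% exact interval 109 to 3265), a call ended by leaving out any 1 of the 8 libraries (highest adjusted p 0.161). It too passed the filter on low counts through CLP libraries alone, so its direction was fixed.

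A further 12 of these genes changed by 1.24 to 5.88 on the log2 scale and each lost the call without at least 1 library. Slfn2, an interferon-linked leukocyte gene, stood at 5.88 ± 0.98 (ended by leaving out CLP 1, highest adjusted p 0.0812), Slc12a2, the sodium, potassium and chloride cotransporter NKCC1, at 1.56 ± 0.29 (ended by leaving out sham 1 or CLP 1 or 4, highest adjusted p 0.0627) and Pde4b, a cyclic AMP phosphodiesterase, at 1.56 ± 0.31 (ended by leaving out sham 3 or CLP 1 or 2, highest adjusted p 0.115). Nupr1, a stress-induced nuclear protein, stood at 1.57 ± 0.32 (ended by leaving out sham 1 or CLP 1, highest adjusted p 0.17) and Cemip2, a cell surface protein linked to hyaluronan, at 1.41 ± 0.29 (ended by leaving out sham 2 or 3 or CLP 1, 3 or 4, highest adjusted p 0.108). Pdpn, podoplanin of podocytes, stood at 1.24 ± 0.27 (ended by leaving out sham 1 or 4 or CLP 1, 2 or 4, highest adjusted p 0.137) and Ankrd1, a target of the factor YAP, at 3.09 ± 0.69 (ended by leaving out sham 1, 2 or 4 or CLP 1, 3 or 4, highest adjusted p 0.291). Sh3bp5 stood at 1.39 ± 0.30 (ended by leaving out sham 1, 2 or 3 or CLP 1, 2 or 4, highest adjusted p 0.134), Ccnl1 at 1.95 ± 0.42 (ended by leaving out sham 1, 2 or 4 or CLP 1, 2, 3 or 4, highest adjusted p 0.177) and Midn at 1.41 ± 0.31 (ended by leaving out sham 1, 2, 3 or 4 or CLP 1, 3 or 4, highest adjusted p 0.177). The ubiquitin proteases Usp2 and Usp53 stood at 1.36 ± 0.31 (ended by leaving out sham 1, 2, 3 or 4 or CLP 2, 3 or 4, highest adjusted p 0.199) and 2.04 ± 0.46 (ended by leaving out sham 1, 2 or 3 or CLP 1, 2, 3 or 4, highest adjusted p 0.183).

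The healthy mice gave a second reference for the called genes. In 55 of the 64 higher genes the healthy and sham mice overlapped, and in 58 all CLP mice lay above all healthy mice, the exceptions including Cxcl10, Hp, Tnip1, Ccnl1 and Ankrd1. The healthy mice lay below all sham mice for 7 of the 64 higher genes, Mt1, Mt2, Saa3, Sbno2, Cdkn1a, Adamts9 and Usp2. Over all genes tested this held for 248 (2.10%). Mt1 had 317, 348, 609.9 and 325 CPM in healthy mice. Icam1 and Slfn2 were the 2 higher genes with healthy mice above all sham mice, as were 1.55% of all genes. Healthy and operated mice differ in surgery and in hour, which cannot be told apart here.

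Whole kidney of the same 8 mice, which includes the glomeruli, showed most of these changes. Of the 69 genes 65 were tested there, all with the same direction, and 52 were called in the same direction, 50 of them higher, beside a background of 2.52% of 13835 genes called (2.07% higher). They are 75.4% of the glomerular calls and 14.9% of the 348 whole kidney calls. Tested there without a call were Cxcl2, Lcn2, Ifit1, Cdkn1a, Tnfaip2, Hp, Slc12a2, Nupr1, Inka1, Pbx2, Sh3bp5, Midn and Kif26a, and Sele, Fpr1, Chil3 and Camp were too low in whole kidney to be tested. By list, whole kidney called higher 7 of 15 tested neutrophil genes, 18 of 24 NF-kB response genes, 17 of 23 immediate early genes, 11 of 40 interferon genes and 1 of 27 podocyte genes. Sele had 0.106, 0.125, 0.219 and 0.628 CPM in whole kidney of sham mice and 0.784, 0.872, 3.01 and 4.11 CPM after CLP. Mt1 rose by 1.63 in whole kidney, from 725 ± 132 to 2249 ± 332 CPM, and by 3.45 in glomeruli. Slc12a2 stood at 0.09 in whole kidney (adjusted p = 0.879) and Pbx2 at -0.25 (adjusted p = 0.689). Whether these changes differ in size between glomeruli and whole kidney was not tested.

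**Figure D5:**
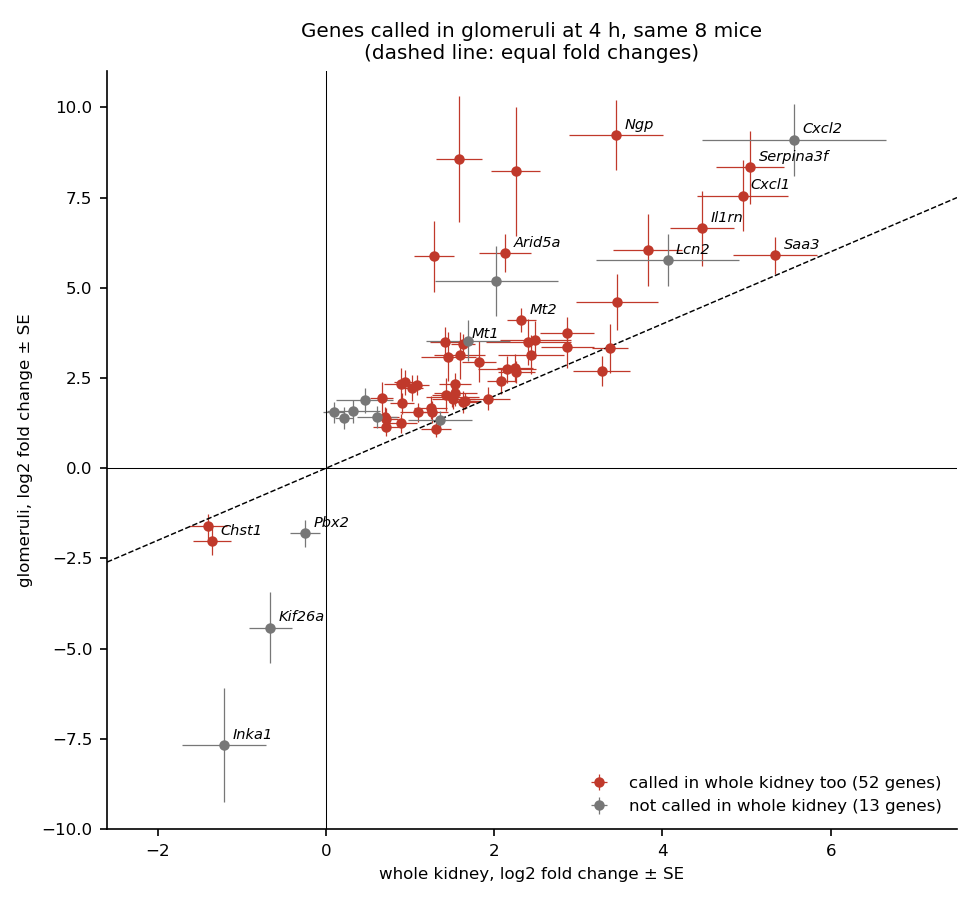
Log2 fold change of CLP over sham in whole kidney (x axis) and glomeruli (y axis), ± standard error, for the 65 glomerular calls tested in both, with a dashed line at equality. The 52 genes called in both are red, and all 65 lie in the quadrants of equal sign.

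The arterioles, peritubular capillaries and post-capillary venules of the same mice gave fewer calls of their own: 8, 4 and 7 genes (0.0897%, 0.0451% and 0.0705% of those tested), of which 5, 2 and 7 were also glomerular calls. The capillary calls were 0.0339% higher and 0.0113% lower, and all others were higher. Mt1 and Mt2 were called in all 3. Icam1, Saa3, S100a9, Il1rn and Akap12 were called in venules, and Cebpd, Sbno2 and Gm13889 in arterioles. Scaled across the 4 compartments, Mt1 rose in glomeruli from 707 ± 108 to 7560.1 ± 3199 CPM and in arterioles from 2417 ± 1446 to 26000.5 ± 12541 CPM.

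Sele and Thbd looked different between compartments, but no difference passed a test. Sele had 57.7, 73.2, 97.6 and 124 CPM in glomeruli of the CLP mice, 0, 0.113, 0.281 and 0.291 CPM in their arterioles, 0, 0, 0.165 and 47.9 CPM in their capillaries and 0, 0.127, 0.267 and 26.5 CPM in their venules. It was thus high in all 4 glomerular libraries and in 2 of the 12 others. Thbd had 71.6 to 177 CPM in sham and 367 to 552 CPM in CLP glomeruli, and 131 to 268 CPM in sham and 45.5 to 80.4 CPM in CLP arterioles, higher in the first and lower in the second with no overlap (arteriolar log2 fold change -1.69, adjusted p = 0.998). The change in glomeruli exceeded the mean change of the other 3 compartments by 2.93 ± 0.73 for Thbd (adjusted p = 0.945) and by 0.91 ± 0.27 for Mt1 (adjusted p = 1). Over 14272 genes this test (edgeR, 32 libraries, mouse as a block) called 0 genes, a background of 0%, with a smallest adjusted p of 0.693 and 387 genes at an unadjusted p under 0.05, so no glomerular change was shown to differ from the other vessels.

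Glomeruli of other mice, taken at 24 h, gave a second time point. The test of the difference between the 4 h and 24 h changes called 3 of 13450 genes (0.0223%). The signed change was higher at 4 h for Mt1 and Acsm1 (0.0149%) and lower for Saa3 (0.00743%). For Acsm1 the change at 24 h was a fall, with lower values in CLP than in sham mice. Scaled across the times, Mt1 had 340.4 ± 91.9 CPM in sham and 621 ± 255 CPM in CLP mice at 24 h, so that its change was 2.64 ± 0.41 larger at 4 h (adjusted p = 0.00442). Saa3 was called at both times. At 24 h it had no count in any of the 4 sham mice and 38, 43.3, 182 and 187 CPM in the CLP mice, and the fitted difference of -7.07 (adjusted p = 0.0175) has no firm size, because 1 group is at 0. That call ended by leaving out CLP 1, 2 or 4 of 4 h or sham 3 of 24 h (highest adjusted p 0.0614), and the other calls held without each of the 16 libraries. Acsm1, a mitochondrial acyl-CoA synthetase of the tubule, had no count in the 4 CLP mice at 24 h and 17.1, 35.9, 41.1 and 107 CPM in sham mice, while at 4 h, on the scale used above, it had 4.11, 45.1, 20.7 and 2 CPM in sham and 36.6, 56.5, 37.8 and 41.6 CPM in CLP mice (adjusted p = 0.00859).

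Own calls at later times were few, 6 of 11015 genes at 24 h (0.0545%) and 7 of 10857 at 72 h (0.0645%). Saa3, S100a8 and Nupr1 were shared at 24 h, and Ngp, S100a8, Lcn2 and Serpina3g at 72 h. S100a8 was thus called at all 3 times, with 830.3 ± 411 CPM at 24 h and 2823 ± 634 CPM at 72 h in CLP mice. Sele was high in 2 of the 4 CLP mice at 24 h (0, 0.178, 121 and 154 CPM) and at most 14.9 CPM at 72 h. Chst1, lower at 4 h, had 147 ± 42.2 CPM in sham and 156 ± 57.3 CPM in CLP mice at 24 h, where the groups overlapped, and the difference between the times was not called (adjusted p = 0.368).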

How the data were processed

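Laser-microdissected glomeruli were sequenced as 3′ QuantSeq libraries, and the authors deposited raw read counts per Ensembl gene. Per the submitters' processing notes, STAR 2.7 was used with SAMtools 1.9 and the counters HTSeq 0.13 and featureCounts, with the builds GRCm38.p6 and GRCm39 named and their roles not given in the sources used here. Positions of genes come from GENCODE M21 (GRCm38) by gene ID, and promoters from RefSeq by symbol.

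Counts were tested with edgeR 4.0.16 (R 4.3.3): genes with low counts were filtered by group (at least 10 counts at the median depth, 1.27 CPM, in 4 libraries), libraries scaled by TMM, and a robust quasi-likelihood fit made on the 8 libraries with no covariate and Benjamini-Hochberg adjustment over 11786 genes. Of 20199 genes with a count, 8413 were filtered out. Of the tested genes 22 passed through CLP and 19 through sham libraries alone, among them 8 of the higher and 1 of the lower calls. The change in glomeruli was set against the mean change of the other 3 dissected compartments in 32 libraries with mouse as a block, and against 24 h in 16 libraries. CPM are on a TMM scale over the healthy and 4 h glomeruli. Folds against 3 or fewer counts are ratios with exact 95% counting intervals, and counting intervals leave out variation between mice. Python 3.11.15 with scipy 1.17.1 was used for the exact permutation tests.

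The members, the 42 lists and the tests were chosen with earlier results of these data known, and the fit on 8 libraries was chosen knowing that it calls more genes than a fit over 28. Genes named are the 12 highest and lowest calls with a mean of at least 5 CPM, up to 4 calls per list with preset key members, and up to 5 calls per test of a difference. The alternatives were DESeq2 1.42.0, limma 3.58.1, other filters, scaling and library sets, a replicate block and leaving out each library. The healthy mice carry 4 h in the deposited table, and the 0 h of their labels was used. A few named genes are not reported here.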

Additional observations from a re-analysis of the deposited data

Results flagged for a closer look

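Of 237 sets of 4 libraries looked at among the named genes, 26 had a highest or lowest library set apart from the other 3 (Dixon's 95% critical value for the gap over the range). That value flags about 1 in 20 groups where values are normally distributed. Whether these CPM are, some of them at 0, was not tested, so 26 cannot be set against that rate. Among CLP mice, replicate 1 was highest for Cxcl1 at 504 CPM (next 94.6), Hmox1 at 105 CPM (next 25.2), Timp3 at 5984 CPM and Il6 at 2.56 CPM (the others at 0), and lowest for Wt1 at 197 CPM (next 384). CLP replicate 2 was lowest for Ifit1 at 55.95 CPM, Fos at 12.2 CPM and Cldn5 at 86.6 CPM. CLP replicate 3 was lowest for S100a8 at 718 CPM and highest for Cx3cl1 at 326 CPM and Ren1 at 2016 CPM.

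Among sham mice, replicate 1 was highest for Cd14 at 16.002 CPM, Timp1 at 9.20 CPM, Fga at 14.3 CPM and Tlr2 at 17.8 CPM (next 0.333). Sham replicate 2 was highest for Il1b at 21.6 CPM, Slc34a1 at 2797 CPM, Esm1 at 36.4 CPM and Apln at 14.4 CPM. Sham replicate 3 was highest for Cxcl1 at 3.41 CPM, Chil3 at 2.04 CPM and Synpo at 1426 CPM. Sham replicate 4 was highest for Saa3 at 4.56 CPM, Egr1 at 55.4 CPM, Tnfaip3 at 7.56 CPM and Mki67 at 30.2 CPM (next 0.136).

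The change after CLP differed between 4 h and 24 h for 3 genes (edgeR, adjusted over 13450 genes): by 2.64 on the log2 scale for Mt1 (adjusted p = 0.00442), by a fitted 13.1 for Acsm1 (adjusted p = 0.00859) and by a fitted -7.07 for Saa3 (adjusted p = 0.0175). The last pair each had a group at 0 at 24 h, so the fitted sizes are no bounds.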

How the results depend on the processing

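The count of 69 called genes became 16 with all 28 glomerular libraries in the fit, 427 with DESeq2 (290 higher and 137 lower) and 148 with no filter on low counts, and ran from 37 to 81 when each library was left out, lowest without CLP replicate 1 and highest without sham replicate 4. It was 47 with 12 libraries, 71 with limma voom, 70 with size factors by relative log expression and 66 with a mean of 5 CPM as the filter. The cause was not tested. With no filter the test against the other compartments called 2 genes, the test against 24 h 14 and whole kidney 614. Left-out libraries gave 2 to 11 calls against 24 h, highest without the 24 h CLP replicate 1 with 10 without the 24 h CLP replicate 4 and 5 without the 24 h CLP replicate 3, and 219 to 375 in whole kidney, lowest without sham replicate 2.

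Replicate numbers did not pair the mice: deviations of same-numbered sham and CLP libraries correlated at -0.0125 to 0.0376. With the replicate number as a block 65 genes were called, 56 of them shared, and 308 in whole kidney and 3 against 24 h. The test against the other compartments called 0 genes without its block.

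Over the named genes and all settings, 1684 comparisons kept direction and side of the threshold, 153 lost the call, 24 gained one and 56 changed sign, the last all in genes not called. The sign changed under limma voom for Dbp (0.43), Pecam1 (-0.13), Mki67 (4.40) and C1qa (1.79), with no filter for C1qa (0.0052), and with the replicate block for Slc30a1 (0.0052), Mki67 (5.16) and C1qa (0.30). Leaving out 1 library, the log2 fold change ran over -0.21 to 0.47 for Umod, -0.072 to 0.39 for Tsc22d3, -0.37 to 0.12 for Slc34a1, -0.39 to 0.24 for Ren1, -2.39 to 0.16 for Procr, -0.052 to 0.27 for Vegfa, -0.031 to 0.29 for Sgk1, -0.11 to 0.51 for Fkbp5, -0.14 to 0.44 for Plat, -0.36 to 0.39 for Slc30a1, -0.38 to 0.21 for Kap, -0.19 to 0.19 for Pecam1, -1.63 to 0.69 for Hspa1a, -1.79 to 6.93 for Mki67, -1.11 to 5.36 for Apln, -0.21 to 0.38 for Tlr4, -0.10 to 0.29 for Klf2 and -0.45 to 0.67 for C1qa.

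Depth limits what low genes can show: a library at 0 allows up to 3 counts, and genes such as Il6 and F3 lie near that level. With 4 mice a group and a biological coefficient of variation of 0.957, a change that missed the threshold is not shown to be absent.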

Other observations

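Fibroblast and lymphocyte markers were not summed in the comparisons above. The 8 fibroblast markers summed to 759.7 to 984 CPM in sham and 1066 to 1294 CPM in CLP glomeruli, ranges that did not overlap, while none of the 6 tested members was called and their median log2 fold change was 0.12. Lymphocyte markers summed to 0 to 63.5 CPM in sham and 0.134 to 32.7 CPM in CLP glomeruli, and none was tested. The part of these cells in the changes was not tested.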
